A study of Mus musculus with 6 samples.

Results

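The miR-106a-363 cluster is a run of 6 microRNA (miRNA) hairpins on the mouse X chromosome. Of the 1907 mature miRNAs counted in the series, 10 carry a name that belongs to this cluster and to no other gene, and these are described here: miR-106a-5p and -3p, miR-18b-5p and -3p, miR-20b-5p and -3p, miR-19b-2-5p, miR-92a-2-5p, and miR-363-3p and -5p. They were chosen by name and not by any measured value, although earlier results of these data were known at that point. The other products of the Mir19b-2 and Mir92-2 hairpins, miR-19b-3p and miR-92a-3p, have the same sequence as products of a second cluster on chromosome 14, so their reads cannot be assigned to one cluster, and they were kept apart.

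Small RNA was sequenced from 2 mouse embryonic stem cell (ESC) lines, RB18 and RB20, both derived from C57BL/6 mice in R2i medium with LIF. Each line was kept in R2i, or was moved to 2i or to serum and passaged more than 10 times, which gave 3 media and 6 libraries. All media held 1000 U/ml LIF, a cytokine that sustains ESC self-renewal. Serum medium held 15% fetal bovine serum. The other 2 media, called ground-state media, were serum free and both contained PD0325901, which inhibits MEK, at 1 µM. To this 2i added CHIR99021, which inhibits GSK3, at 3 µM, and R2i added SB431542, which inhibits TGF-β receptors, at 10 µM. Each library was made from a pool of 3 cultures, so the 2 libraries of a medium are the 2 lines, and their spread holds line, pool and sequencing together.

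Counts assigned to miRNAs ranged from 1041858 to 3593356 per library. RB18 was sequenced less deeply than RB20 in every medium, so line and depth cannot be told apart. The labelled cell type was checked with 7 ESC miRNAs of the miR-290 and miR-302 clusters, which took 32.1% to 34.8% of the counts in 5 libraries and 23.8% in RB20 in serum. That library stood apart: miR-92a-3p took 14.6% of its counts, against 4.29% to 8.97% in the others. Where leaving it out ended a call, turned a direction or moved a log2 value by over 1.5 times in a comparison with serum, the value without it is given beside the result. Of 9 miRNAs that mark muscle, blood, neural or fibroblast cells, 7 could be tested and 2 were lower in ground-state ESCs, the muscle miRNAs miR-1a-3p and miR-133a-3p. The 9 summed to 2465 and 2774 CPM (counts scaled to a common library total) in serum, 4028 and 4022 with 2i, and 2738 and 2806 with R2i. The 3 muscle miRNAs made up 79.4 and 46.6 CPM in serum and 0.305 to 7.72 CPM in the ground-state libraries. Of the blood markers, miR-223-3p was at 0 counts in every library. miR-142a-3p measured 248 and 256.8 CPM in serum, 340.7 and 122.7 CPM in 2i, and 91.78 and 26.03 CPM in R2i. The fibroblast marker miR-143-3p was the most abundant of the 9. It measured 1318 and 1877 CPM in serum, 3114 and 3380 CPM in 2i, and 2120 and 2209 CPM in R2i. The part of these other markers in the results below was not tested.

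A miRNA gene is transcribed as a hairpin, which is cut so that a mature miRNA of the 5′ arm (5p), the 3′ arm (3p) or both remains. Bases 2 to 8 of the mature miRNA, the seed, pair with target messenger RNAs, and miRNAs with a common seed are counted as a family. The miR-106a-363 cluster is a paralog of the miR-17-92 cluster on mouse chromosome 14, and a further paralog is the miR-106b-25 cluster. The miR-17-92 cluster is known for promoting proliferation and survival, and the miR-17 family is abundant in ESCs, where its seed resembles that of the ESC-specific miR-290 and miR-302 clusters.

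On GRCm38 the 6 hairpins lie on the minus strand at chrX:52741693-52742567, a span of 875 bases. In the direction of transcription they follow each other as Mir106a, Mir18b, Mir20b, Mir19b-2, Mir92-2 and Mir363, with gaps of 46 to 138 bases. The first 5 bases of the Mir106a hairpin overlap the end of an exon of Kis2, a long noncoding RNA gene annotated on the same strand at chrX:52742563-52744960. The other 5 hairpins overlap no further annotated gene. RefSeq held the mature sequence of 9 of the 10 members for this assembly, and they are shown because seed and near-identity decide which comparisons can be read. The seed is in capitals.

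mmu-miR-106a-5p: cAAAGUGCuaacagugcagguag
mmu-miR-20b-5p: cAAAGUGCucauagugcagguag
mmu-miR-106a-3p: aCUGCAGUgccagcacuucuuac
mmu-miR-20b-3p: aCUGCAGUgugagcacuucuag
mmu-miR-18b-5p: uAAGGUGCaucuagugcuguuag
mmu-miR-18b-3p: uACUGCCCuaaaugccccuucu
mmu-miR-19b-2-5p: aGUUUUGCagauuugcaguucagc
mmu-miR-92a-2-5p: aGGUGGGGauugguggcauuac
mmu-miR-363-3p: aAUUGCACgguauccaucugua

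The 5p arms of miR-106a and miR-20b share the seed of the miR-17 family, and their 3p arms share the seed of miR-17-3p. The seed of miR-363-3p is that of miR-92a-3p and miR-25-3p, so that it is the one member of the 10 in the miR-25 family. The seeds of miR-18b-3p and miR-92a-2-5p occurred in no other miRNA of the table with a RefSeq sequence. The counterparts of the miR-17-92 cluster are shown next, because they differ from the members at few bases.

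mmu-miR-17-5p: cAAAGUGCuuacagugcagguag
mmu-miR-20a-5p: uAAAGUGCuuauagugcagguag
mmu-miR-18a-5p: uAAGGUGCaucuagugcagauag
mmu-miR-18a-3p: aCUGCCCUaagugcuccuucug
mmu-miR-20a-3p: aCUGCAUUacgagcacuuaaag
mmu-miR-92a-1-5p: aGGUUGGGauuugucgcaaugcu

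With positions counted from 1 at the member's 5′ end, miR-106a-5p differed from miR-17-5p by A10U alone, and miR-20b-5p differed from miR-20a-5p by C1U and C10U. The 5p arms of miR-106a and miR-20b differed from each other by A10C and C12U. The change from miR-18b-5p to miR-18a-5p was U18A and U20A. miR-18b-3p starts 1 base earlier than miR-18a-3p and then differed by A12G and C16U. How reads that match several of these sequences equally well were counted is not given in the sources used here, so the levels of miR-106a-5p, miR-20b-5p, miR-18b-5p and their counterparts are uncertain to that extent. miR-92a-2-5p, at 5 differences from miR-92a-1-5p, and miR-20b-3p, at 5 differences from miR-20a-3p, are set further apart, and G5U and G7U fall inside their seeds.

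All 10 members were detected in all 6 libraries and passed the filter on low counts. Together they took 0.613% (95% Wilson interval 0.601 to 0.624) of the counts of RB18 and 0.655% (0.644 to 0.665) of RB20 in serum. In 2i they took 0.683% (0.672 to 0.695) and 0.534% (0.526 to 0.542), and in R2i 0.583% (0.569 to 0.598) and 0.434% (0.428 to 0.441), for RB18 and RB20. Intervals cover counting error only. The media overlapped, with RB18 in 2i above both serum libraries.

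Levels below, like those of the markers above, are CPM scaled by edgeR's trimmed mean of M values (TMM), a correction for differences in composition. They are given for RB18 and then RB20. Mature miRNAs are of nearly equal length, 22 to 24 bases here, so no length correction was made. miR-363-3p was the most abundant member, at 2981 CPM on average over the 6 libraries and 38th among all miRNAs, and it made up 39% to 61.6% of the members' counts. Next came miR-20b-5p at 1336 CPM and miR-106a-5p at 932.5 CPM, followed by miR-18b-5p at 225.6 CPM. The ranges of miR-20b-5p and miR-106a-5p over the libraries overlapped, although miR-20b-5p was the higher in all 6. miR-363-5p, miR-92a-2-5p and miR-18b-3p lay at 113, 102.9 and 85.71 CPM, with overlapping ranges. miR-363-5p was above miR-18b-3p in all 6 libraries. miR-92a-2-5p could not be ordered against either, since its place turned between libraries. miR-20b-3p followed at 49.29 CPM, and miR-19b-2-5p and miR-106a-3p were the least abundant, at 15.84 and 12.47 CPM, with counts of 14 to 55 and 19 to 34. Between miR-363-3p and miR-20b-5p, between miR-106a-5p and miR-18b-5p, and between miR-20b-3p and miR-19b-2-5p the ranges did not overlap.

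**Figure D1:**
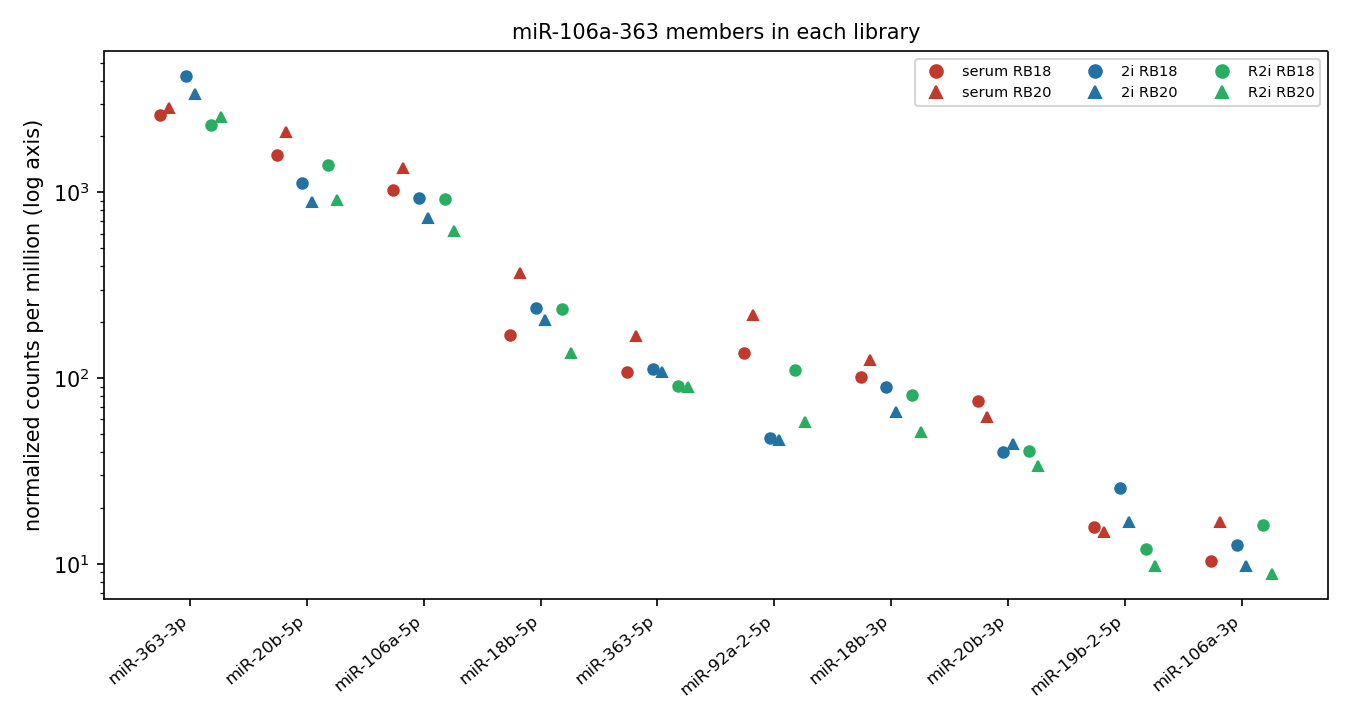
TMM-normalized CPM (log axis) of the 10 members in each of the 6 libraries, ordered by mean level; circles are RB18, triangles RB20, and colours the medium. miR-363-3p lies between 2300 and 4211 CPM, and miR-92a-2-5p shows the widest gap between the serum libraries (136.3 and 218.6 CPM) and the 2i libraries (47.62 and 46.41 CPM).

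The first question was how the cluster differed between ground-state ESCs, taken as the mean of 2i and R2i, and ESCs in serum. A single member, miR-92a-2-5p, was lower in the ground state, by 2.84-fold, and none was higher. The other 9 did not pass the test, which asked for an adjusted p under 0.01 and more than 2-fold (edgeR quasi-likelihood test with Benjamini-Hochberg adjustment over 571 miRNAs). Against 1 of 10 members, 20% of all tested miRNAs were called lower, so the members were not called more often than miRNAs at large. At an unadjusted p under 0.05, 4 of 10 were lower, against 29.9% of all tested. The direction was more uniform than the calls: 9 of 10 log2 fold changes were negative, with a median of -0.52. Among all tested miRNAs 51% were negative, with a median of -0.023. In the list of 10 unique to the paralogous miR-17-92 cluster, 7 were negative, with a median of -0.12. The sign of miR-19b-2-5p, one of the 9 negative members, turned under other scalings. In 5 members both serum libraries lay above all 4 ground-state libraries, a pattern seen in 32.4% of all tested miRNAs. Without RB20 in serum, 7 of 10 members were negative, with a median of -0.29, and none was called.

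miR-92a-2-5p, the 5′ arm of the hairpin whose 3′ arm is the abundant miR-92a-3p, measured 136.3 and 218.6 CPM in serum, from 249 and 441 counts. It measured 47.62 and 46.41 CPM in 2i and 110.7 and 57.78 CPM in R2i. Serum and ground-state libraries did not overlap, with RB18 in R2i close to RB18 in serum. The log2 fold change was -1.51 ± 0.31 (standard error) for the ground state against serum, with adjusted p = 0.00401 by the edgeR quasi-likelihood test. With the cell line as a replicate block it was -1.52 and adjusted p = 0.0131, past the limit of 0.01. Leaving out RB20 of serum, 2i or R2i gave -1.18, -1.48 and -1.29 with adjusted p of 0.0417, 0.0122 and 0.0102 in edgeR, so the drop stayed above 2-fold while the call rested on RB20.

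The Mir20b hairpin gave the next largest differences, neither of which reached 2-fold. miR-20b-5p, a miR-17 family member, measured 1582 and 2113 CPM in serum, 1120 and 887 CPM in 2i, and 1400 and 912.2 CPM in R2i. Its log2 fold change was -0.78 ± 0.25, with an adjusted p of 0.0329 in edgeR. miR-20b-3p measured 75.56 and 61.97 CPM in serum, 39.85 and 44.27 CPM in 2i, and 40.32 and 33.75 CPM in R2i. Its value was -0.81 ± 0.20, with an adjusted p of 0.0109. In both arms every ground-state library lay below both serum libraries, so both arms were lower than serum in both lines.

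The Mir106a hairpin carries the second miR-17 family member. miR-106a-5p measured 1035 and 1350 CPM in serum, 933.5 and 728.8 CPM in 2i, and 923.9 and 622.7 CPM in R2i. The serum libraries were the highest, but RB18 differed little between media, and the log2 fold change of -0.57 ± 0.25 had an adjusted p of 0.0868 in edgeR. miR-106a-3p measured 10.4 and 16.86 CPM in serum and 8.868 to 16.3 CPM in the ground state. Its groups overlapped, and its value was -0.26 ± 0.38, or 0.084 without RB20 in serum.

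The Mir18b arms differed in whether serum and ground state overlapped. miR-18b-5p, of the miR-18 family, measured 169.7 and 366.8 CPM in serum, 239.6 and 205.8 CPM in 2i, and 235 and 136.7 CPM in R2i. The serum libraries were the second lowest and the highest of the 6, and the log2 fold change was -0.40 ± 0.35 (adjusted p = 0.366, edgeR), or 0.21 without RB20 in serum. miR-18b-3p measured 101.3 and 124.9 CPM in serum, 89.42 and 65.65 CPM in 2i, and 81.49 and 51.49 CPM in R2i. Here the groups did not overlap, and the value was -0.67 ± 0.26 with an adjusted p of 0.0621 in edgeR.

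The Mir363 hairpin, which has no counterpart in the miR-17-92 cluster, was not lower in its main product. miR-363-3p measured 2617 and 2843 CPM in serum, 4211 and 3373 CPM in 2i, and 2300 and 2540 CPM in R2i. Serum lay between the ground-state media, and the log2 fold change was 0.15 ± 0.20 (adjusted p = 0.56, edgeR). miR-363-5p measured 107.3 and 169.5 CPM in serum, 112.3 and 108.1 CPM in 2i, and 90.93 and 89.82 CPM in R2i, with -0.47 ± 0.23, or -0.16 without RB20 in serum. The sum of the other 9 members was highest in the serum libraries, at 3234 and 4437 CPM against 2621 and 2113 CPM in 2i and 2911 and 1923 CPM in R2i. miR-19b-2-5p, the minor arm of Mir19b-2, measured 15.88 and 14.87 CPM in serum, 25.76 and 16.79 CPM in 2i, and 12.01 and 9.726 CPM in R2i. Its value for the ground state against serum was -0.040 ± 0.30, or -0.15 without RB20 in serum.

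The ground-state media were next set against serum one at a time. Both comparisons share the serum libraries, so their values are given side by side and are not independent. In 2i, 1 member was called lower, against 17.3% of all tested miRNAs. At an unadjusted p under 0.05, 3 were lower, against 29.1%, and 8 log2 fold changes were negative, against 51.1%, with a median of -0.43. DESeq2 gave 2 lower and 1 higher at that limit, the latter being miR-363-3p at 0.50. Without RB20 in serum, 6 were negative in 2i, with a median of -0.20. In R2i no member was called by edgeR or by DESeq2, against 15.6% of all tested called lower. At an unadjusted p under 0.05, 3 were lower by edgeR, against 26.8%, and 2 by DESeq2. All 10 were negative, against 51.1%, with a median of -0.62. Without RB20 in serum, 8 were negative in R2i, with a median of -0.48.

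miR-92a-2-5p fell in 2i, with a log2 fold change of -1.92 ± 0.38 (3.77-fold lower) and adjusted p = 0.00385 by edgeR. With the cell line as a replicate block this was -1.93 and adjusted p = 0.0124, and without RB20 in serum it was -1.59 and adjusted p = 0.023, so the call was lost in both. Leaving out RB18 or RB20 of 2i gave -1.88 each time, with adjusted p of 0.0105 and 0.0261 in edgeR. In R2i its value was -1.10 ± 0.37 with an adjusted p of 0.0457, which was not called, and with no filter on low counts it was -1.08 with 0.00529, which was. Leaving out RB20 of serum or of R2i gave -0.76 and -0.68 in R2i, with adjusted p of 0.207 and 0.266 in edgeR, and leaving out RB18 of R2i gave -1.60. miR-363-5p went from -0.33 to -0.018 in 2i and from -0.62 to -0.30 in R2i without RB20 in serum. Without that library miR-106a-3p and miR-18b-5p turned from negative to positive, at 0.037 and 0.34 in 2i, while the R2i values were 0.13 and 0.082. miR-20b-5p stood at -0.88 ± 0.30 in 2i and -0.68 ± 0.30 in R2i. miR-20b-3p stood at -0.70 ± 0.23 in 2i and -0.91 ± 0.24 in R2i.

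**Figure D2:**
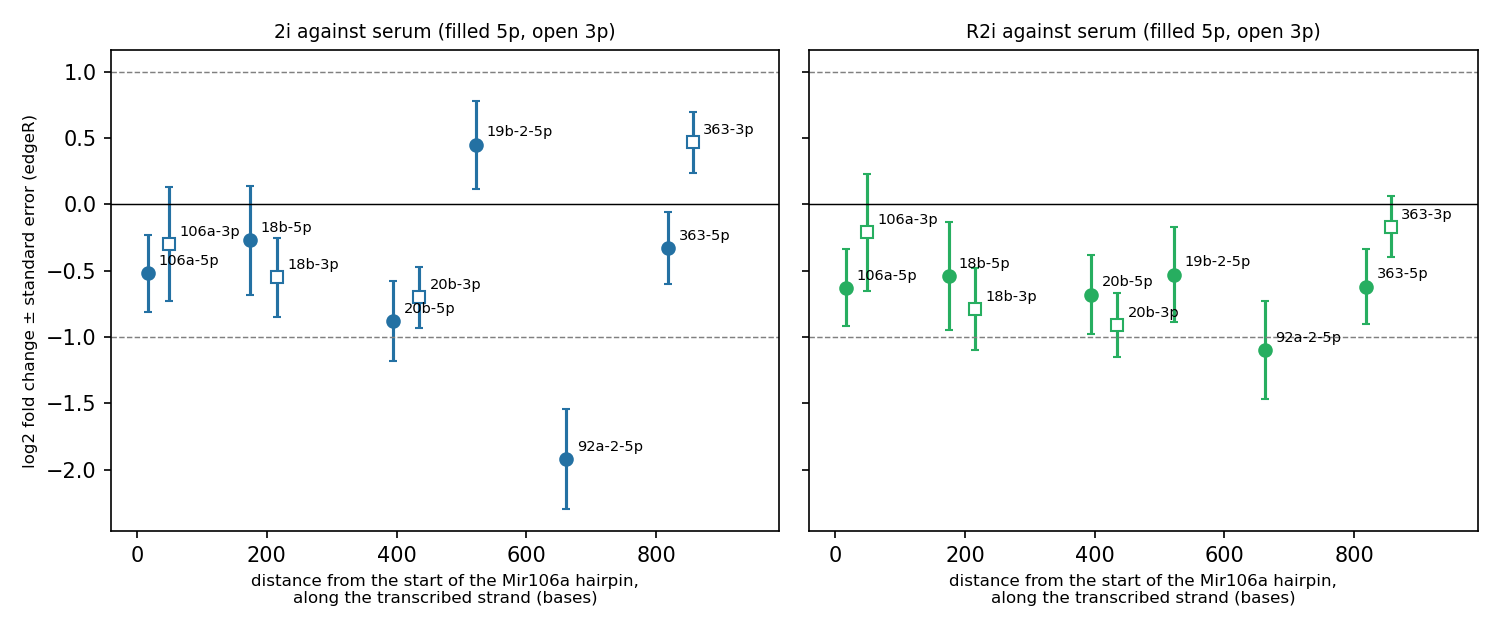
Log2 fold change with its standard error (edgeR) of each member in 2i against serum (left) and R2i against serum (right), placed by distance along the transcribed strand from the start of the Mir106a hairpin in bases; filled symbols are 5p arms, open symbols 3p arms, and dashed lines mark 2-fold. In 2i the values run from -1.92 (miR-92a-2-5p) to 0.47 (miR-363-3p), and in R2i from -1.10 to -0.17.

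R2i and 2i share the MEK inhibitor and differ in the other inhibitor. No member was called between them by edgeR or DESeq2, against 0.35% of all tested called in either direction. At an unadjusted p under 0.05, 2 members were lower in R2i by edgeR, against 18.2% in either direction. DESeq2 gave 1 lower and 1 higher. The 2 in edgeR were miR-363-3p, at -0.65 ± 0.23, and miR-19b-2-5p, at -0.98 ± 0.35, each with an adjusted p of 0.197 in edgeR. For miR-363-3p both 2i libraries lay above both R2i libraries, and for miR-19b-2-5p the same held, with 53 and 55 counts in 2i against 14 and 34 counts in R2i. It also held for miR-363-5p, and for miR-92a-2-5p both R2i libraries lay above both 2i libraries. The share of all tested miRNAs separated in this way is not given here, so the separation shows nothing particular to these members. miR-92a-2-5p was at 0.82 ± 0.38 with an adjusted p of 0.301, and the remaining 7 members lay between -0.29 and 0.20.

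The lines were then compared. Each value is the mean of the log2 ratios of 2i and of R2i to serum within a line, with 0.5 added to the counts. In RB18 the members had a median of -0.12, with 6 of 10 negative and a range of -0.91 to 0.48. In RB20 the median was -0.91, with 9 of 10 negative and a range of -2.07 to 0.042. The medians of all tested miRNAs were 0.014 and -0.060. Of the 10 members, 9 had the lower value in RB20, and 8 lay below serum in both ground-state media of RB20, compared with 5 in RB18. The shares of all tested miRNAs for these counts are not given here. All values of a line share its single serum library, so the members are not separate observations.

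miR-18b-5p and miR-106a-3p lay above serum in RB18 and below it in RB20. miR-18b-5p was at 0.50 and 0.47 in 2i and R2i of RB18, and at -0.83 and -1.42 in RB20. miR-106a-3p was at 0.27 and 0.62 in RB18 and at -0.76 and -0.89 in RB20, from counts of 34 or less. By contrast, miR-20b-3p was at -0.91 and -0.90 in RB18 and at -0.48 and -0.87 in RB20.

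The difference between the lines was tested as an interaction of line and state in edgeR, in which 2i and R2i of a line stand as replicates of the ground state. No member was called, and 0% of all tested miRNAs were called. At an unadjusted p under 0.05 there was 1 member by edgeR and 1 by DESeq2, against 4.73% of all tested by edgeR. The member in edgeR was miR-18b-5p, at -1.58 ± 0.55 with an adjusted p of 0.79. The interaction was negative, that is lower in RB20, for 9 of 10 members with a median of -0.85, and for 56.9% of all tested with a median of -0.14. DESeq2 shifted the median of all tested by 0.11, and the interactions of the same 9 members stayed negative with it. This comparison rests on a single serum library per line, and RB20 in serum is the library that stood apart.

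**Figure D3:**
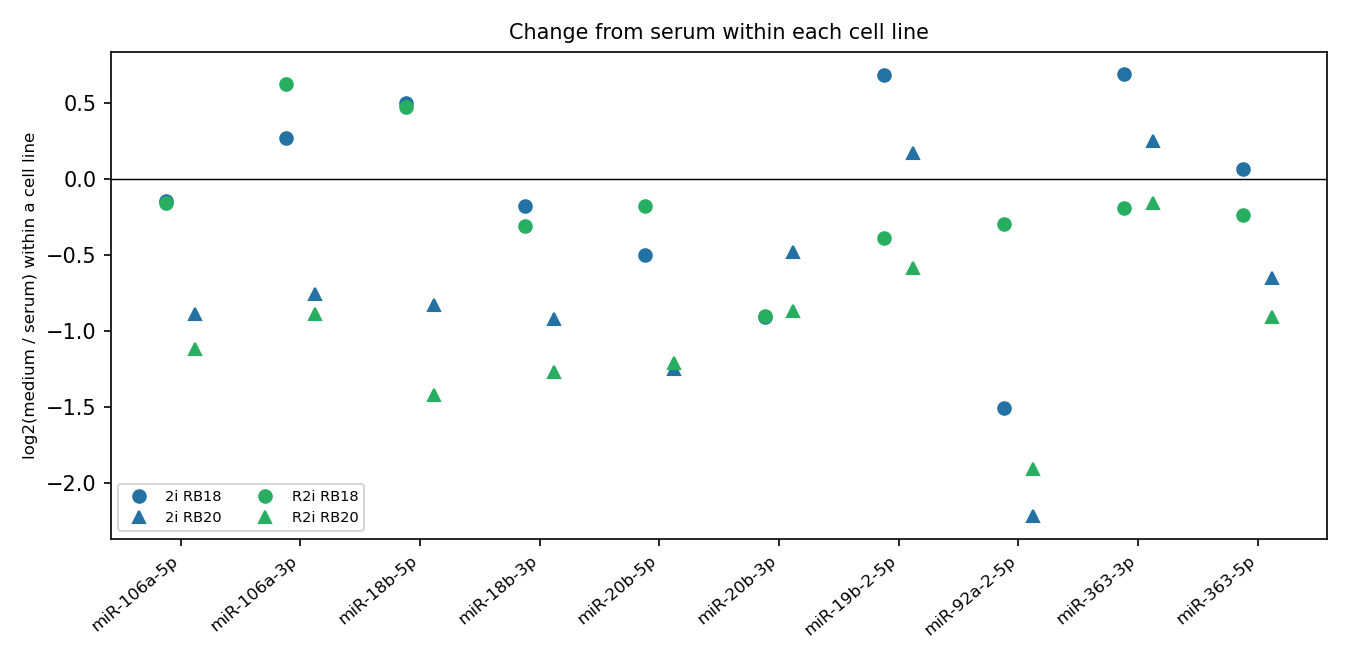
Log2 ratio of 2i (blue) or R2i (green) to serum within each cell line, for the 10 members in order along the transcript; circles are RB18, triangles RB20. RB20 values reach -2.22 for miR-92a-2-5p, and for miR-18b-5p the RB18 values (0.50 and 0.47) and RB20 values (-0.83 and -1.42) lie on opposite sides of 0.

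A further question was whether members changed apart from their counterparts in the miR-17-92 cluster. The ratio of member to counterpart within a library does not depend on scaling. It was compared between the 2 serum and 4 ground-state libraries by an exact two-sided permutation test, whose 15 arrangements cannot give a p below 0.0667. Of 8 pairs, 3 reached that smallest p, each with an adjusted p of 0.178 over the 8, so none passed 0.05. For miR-20b-3p over miR-20a-3p the serum ratios were 0.758 and 0.727, those in 2i were 0.34 and 0.41 and those in R2i were 0.461 and 0.244, a log2 difference of 1.06 between serum and ground state. miR-92a-2-5p over miR-92a-1-5p was 0.0656 and 0.071 in serum, 0.03 and 0.0312 with 2i, and 0.0508 and 0.0276 with R2i, a log2 difference of 1.01. miR-20b-5p over miR-20a-5p was 0.831 and 0.912 in serum, 0.718 and 0.603 with 2i, and 0.648 and 0.497 with R2i, a log2 difference of 0.51. In these 3 pairs each serum ratio exceeded each ground-state ratio.

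miR-106a-5p over miR-17-5p was also highest in serum, at 0.544 and 0.574, against 0.496 and 0.399 in 2i and 0.383 and 0.32 in R2i. Its log2 difference was 0.50 (exact permutation p = 0.133, adjusted p = 0.267). Both serum ratios again exceeded the 4 others. The remaining 4 pairs overlapped between the groups, with log2 differences of 0.11 to 0.48, which without RB20 in serum ran from -0.25 to 0.39, and exact permutation p of 0.2 to 0.867. In all 8 pairs the mean log2 ratio was higher in serum, although miR-106a-3p and miR-19b-2-5p turned sign when a library was left out. Within lines, the smallest p of the same test is 0.111, and the 3 pairs above reached it.

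**Figure D4:**
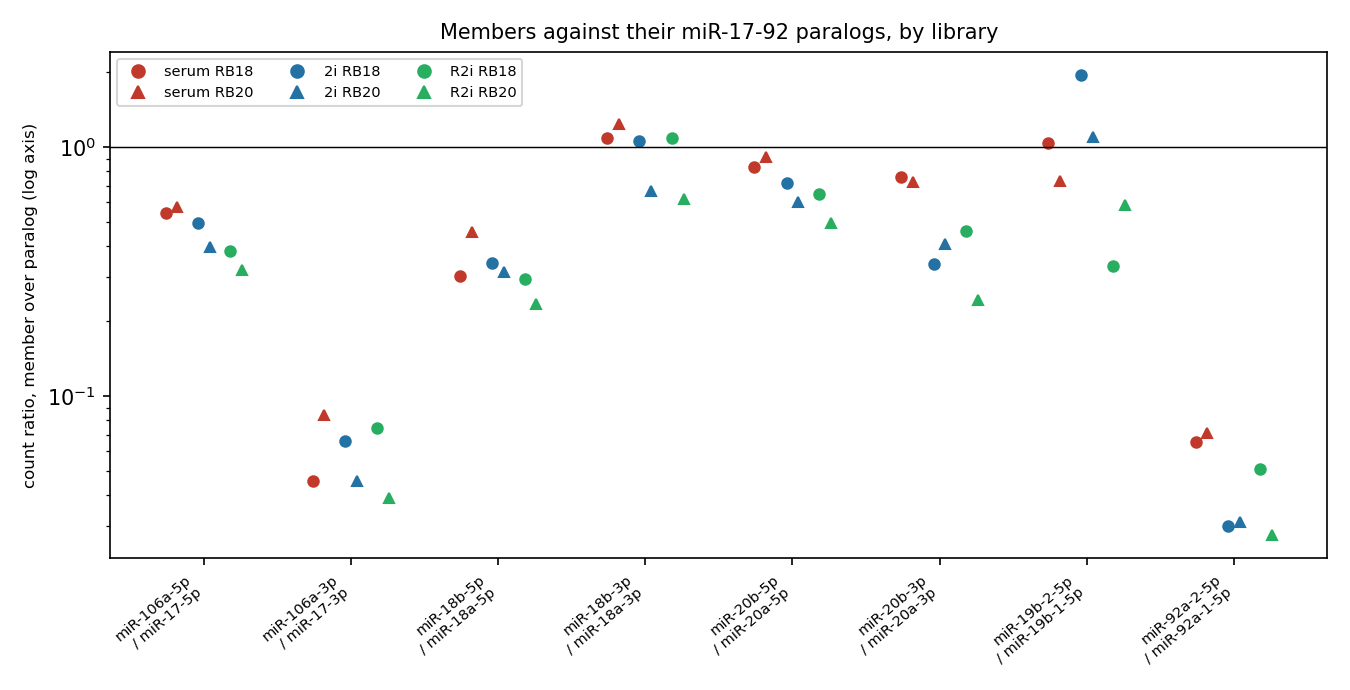
Ratio of the counts of 8 members to those of their miR-17-92 counterparts in each library (log axis); circles are RB18, triangles RB20, colours the medium, and the line marks equal counts. For miR-20b-3p the serum ratios (0.758 and 0.727) lie above the ground-state ratios (0.244 to 0.461), and for miR-92a-2-5p they lie at 0.0656 and 0.071 above 0.0276 to 0.0508.

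The lists themselves were set beside each other by their counts and medians. None of the 10 members unique to the miR-17-92 cluster was called for the ground state against serum by edgeR, with 1 lower at an unadjusted p under 0.05 and a median log2 fold change of -0.12. By sign, 7 of these 10 were negative for the ground state, 9 in 2i and 5 in R2i. None of the 6 miRNAs of the miR-106b-25 cluster was called either, with 1 higher at an unadjusted p under 0.05 and a median of 0.12. For the miR-106a-363 members the median was -0.52, and 9 of 10 were negative for the ground state, 8 in 2i and 10 in R2i. For other miRNAs encoded on the X chromosome alone, 49 of 138 could be tested, of which 7 were called lower and 5 called higher. By sign, 24 were negative and 25 positive, with a median of 0.13. For comparison, of all 571 tested miRNAs 114 (20%) were called lower and 97 called higher. At an unadjusted p under 0.05 in edgeR, 171 of the 571 were lower and 158 higher. Of the products common to both clusters, miR-92a-3p was called lower, at -1.26 ± 0.26 (adjusted p = 0.00419, edgeR). Without RB20 in serum it was at -0.78 with an adjusted p of 0.00936, under 2-fold and not called. It was called in 2i, at -1.50 ± 0.32, and stood at -1.02 there without that library. In R2i it was not called, at -1.03 ± 0.31 with an adjusted p of 0.0309 in edgeR. Without RB20 in serum, miR-92a-3p stood at -0.54 in R2i. miR-19b-3p was at -0.70 ± 0.31 with an adjusted p of 0.0965. miR-92a-3p had 85647 and 162397 CPM in serum and 43661 to 63085 CPM in the ground state.

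Arms of a hairpin come from the same transcript, so the ratio of 5p to 3p was compared in the same way for the 4 hairpins with both arms among the members. miR-363-5p over miR-363-3p was 0.041 and 0.0596 in serum, 0.0267 and 0.032 with 2i, and 0.0395 and 0.0354 with R2i, a log2 difference of 0.58, or 0.31 without RB20 in serum. miR-106a-5p over miR-106a-3p was 99.5 and 80.1 in serum and 56.7 to 74.6 in the ground state, a log2 difference of 0.38, or 0.23 without RB18 in serum. Both had an exact permutation p of 0.0667, the smallest possible, and an adjusted p of 0.133 over the 4 hairpins. The ratio for miR-20b lay between 20 and 34.7 and that for miR-18b between 1.68 and 3.13, with overlapping groups and exact permutation p of 0.933 and 0.267. Their log2 differences of -0.010 and -0.35 became -0.36 and -0.76 without RB20 in serum. The 5p arm was thus the more abundant in miR-106a, miR-18b and miR-20b, and the 3p arm in miR-363, in all 6 libraries.

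Members were also weighed within their seed families, as a description without a test. In the AAAGUGC family of 7 miRNAs, which includes miR-17-5p, miR-20a-5p, miR-93-5p and miR-106b-5p, miR-106a-5p and miR-20b-5p supplied 12.4% and 13.4% of the counts in serum. They supplied 8.12% and 5.77% in 2i and 10.1% and 6.19% in R2i. The family as a whole measured 21153 to 27999 CPM over the 6 libraries, with 21153 and 25856 CPM in serum. The largest part of it was miR-93-5p, at 13490 to 21441 CPM.

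In the AUUGCAC family of 6, to which miR-92a-3p belongs, miR-363-3p supplied 2.64% (95% Wilson interval 2.57 to 2.72) and 1.56% (1.53 to 1.61) in serum. Its share was 7.23% and 5.7% in 2i and 2.96% and 3.46% in R2i, above serum in all 4 libraries. The level of miR-363-3p itself was not higher in R2i, at 2300 and 2540 CPM against 2617 and 2843 CPM in serum. The family total was 99110 and 181645 CPM in serum and 58233 to 77813 CPM in the ground state. In the CUGCAGU family, miR-106a-3p and miR-20b-3p supplied 27.3% and 28.2% in serum, 21.5% and 20.1% with 2i, and 20.6% and 15.8% with R2i, the rest being miR-17-3p. miR-18b-5p supplied 19% to 31.4% of the counts it shared with miR-18a-5p, and here serum and ground state overlapped.

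The members were compared with 477 tested miRNAs outside these lists for likeness of profile, by the root mean square difference of centred log2 CPM from the summed members over the 6 libraries. The nearest were miR-186-3p at 0.13, miR-671-3p and miR-744-5p at 0.15, miR-350-3p at 0.16 and miR-1249-3p at 0.20. miR-744-5p, the most abundant of these, measured 386.6 and 468 CPM in serum, 377.1 and 319.4 CPM in 2i, and 326.8 and 342.1 CPM in R2i. The nearest, miR-186-3p, had few counts and measured only 4.005 to 7.932 CPM over the 6 libraries. The members' own differences from their sum ran from 0.16 for miR-363-5p to 0.77 for miR-92a-2-5p. miR-363-3p alone made up 39% to 61.6% of the counts in that sum.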

How the data were processed

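Small RNA-sequencing libraries of 2 ESC lines in 3 media were analysed, 6 in all, and samples were grouped by medium from their labels. For 1907 mature miRNAs the authors deposited raw counts, obtained after adaptor removal and alignment to the mouse genome. The submitters' processing notes name FastQC 0.11.5, cutadapt 1.3, Bowtie 1.1.2, featureCounts 1.5 and mm10. The authors also deposited log2 values of 1233 miRNAs, which equal log2(count / size factor + 1) within 0.005.

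The counts entered edgeR 4.0.16 (R 4.3.3; TMM; filterByExpr, minimum count 10 and minimum total 15, which kept 571 miRNAs; quasi-likelihood test, 1 coefficient per medium over all 6 libraries), after a check on simulated data. Calls needed a change over 2-fold and p under 0.01 after Benjamini-Hochberg adjustment. Dividing a log2 fold change by the square root of its F statistic gave the standard error. No permutation of 2 libraries against 2 can reach p = 0.05, so these p-values rest on the spread shared between miRNAs (biological coefficient of variation 24.6%). Ratios took 0.5 added to each count. A count of 3 was the detection floor, 0.835 to 2.88 CPM of the library total. The same 2 line names appear in every medium of the labels, which pairs the libraries. Deviations from the medium means over 571 miRNAs correlated at 0.211 between serum and 2i, 0.243 between 2i and R2i and -0.128 between serum and R2i.

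Alternatives were DESeq2 1.42.0 and its size factors, library totals, other filters and limits, the 5 most abundant miRNAs left out, limma 3.58.1 on the log2 table, each library left out, and the line as a block. Added after the data were seen was the block with the lines of R2i exchanged. All 10 members, the shared miRNAs, counterparts, seed families, other miRNAs of the X chromosome as counts, and the 5 nearest profiles are named. Members and lists were chosen with earlier results of these data known. Sequences and coordinates are from RefSeq on GRCm38 and the overlap with Kis2 from the GENCODE annotation of that assembly. Ratios, intervals and plots used scipy 1.17.1, numpy 2.4.6, pandas 2.3.3 and matplotlib 3.10.9 under Python 3.11.15.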

Additional observations from a re-analysis of the deposited data

How the results depend on the processing

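With an adjusted p under 0.05 and no fold limit, 3 members were lower in the ground state, 3 in 2i and 2 in R2i. The share of all tested miRNAs at this limit is not given here, so these counts show nothing particular to the members. At an unadjusted p under 0.05 in edgeR, 29.9%, 29.1% and 26.8% of all tested were lower in these comparisons. With the cell line as a replicate block, 0 members were called for the ground state or 2i, and the block changed no other call of a member. Leaving out a library gave 0 to 1 called members for the ground state and 0 to 1 for 2i. For R2i, 1 member was called under each of 3 alternatives: an adjusted p under 0.05 with more than 2-fold, more than 2-fold without a test, and no filter on low counts. With the lines of R2i exchanged in the block, 1 member was called for the ground state, 1 for 2i and 0 for R2i, as without it. miR-19b-2-5p turned positive for the ground state against serum, at 0.021 with DESeq2, 0.017 with library totals, 0.013 with DESeq2's size factors, 0.035 with at least 10 counts in every library, 0.009 without the 5 most abundant miRNAs and 0.005 with limma. Leaving out a library also turned signs, none of them of called values. For the ground state against serum the values ran from -0.45 to 0.084 for miR-106a-3p, -0.74 to 0.21 for miR-18b-5p and -0.17 to 0.13 for miR-19b-2-5p. In 2i they ran from -0.50 to 0.037 for miR-106a-3p and -0.61 to 0.34 for miR-18b-5p, and in R2i from -0.61 to 0.25 and from -0.95 to 0.082. For R2i against 2i they ran from -0.36 to 0.54 for miR-106a-3p, -0.74 to 0.063 for miR-18b-5p, -0.45 to 0.14 for miR-106a-5p, -0.62 to 0.060 for miR-18b-3p and -0.17 to 0.46 for miR-20b-5p. The log2 difference of ratios ran from -0.25 to 0.62 for miR-106a-3p and -0.31 to 0.53 for miR-19b-2-5p against their counterparts, and from -0.76 to 0.053 and -0.36 to 0.34 for the arms of miR-18b and miR-20b. The cause of these changes was not tested. Over the fitted values of single members, 598 kept direction and side of the threshold, most of them never past it, 23 turned sign, 8 lost and 1 gained a call. The exact tests of ratios cannot pass 0.05 in this design, so only their direction can be read, and 8 of their values turned sign. With 1 library per line and medium, and counts of 14 to 55 for the least abundant members, small differences could not be detected at this depth.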
